A study of Capra hircus with 25 samples.

Results

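Liver miRNAs of Laiwu black goat kids, a domestic goat breed (Capra hircus), were compared between 12 weeks and 4 weeks of age, and each age had 5 libraries, and the kids differ by age alone as far as the labels go: no genotype, treatment, diet or sex is given. The compared miRNAs were all entries of the expression table that reached 1 RPM (reads of a miRNA scaled to a shared library total) in at least 5 of these 10 libraries, which kept 374 of 463 entries. Of these, 335 reached 1 RPM in all 10 libraries, 356 carry goat names and 18 carry sheep names (prefix oar-). At the edge of this rule, 4 entries had 1 RPM or more in exactly 5 libraries and were kept, and 5 had it in exactly 4 and were left out. Whether each library is a separate kid is not stated in the labels, and the p-values therefore reflect variation among libraries that could be partly technical.

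miRNAs are short RNAs cut from hairpin precursors. Either arm of the hairpin, named 5p or 3p by its side, can be loaded into an Argonaute protein, and the loaded RNA pairs with messenger RNAs through its seed near the 5′ end, lowering their translation and stability. Many miRNA genes lie in clusters that are transcribed together. In liver, miR-122 makes up much of the hepatocyte miRNA pool, and the first months of a ruminant's life carry the animal from a milk diet to rumination, when the liver moves from glucose and fat taken from milk to making glucose from fermentation products.

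The libraries of 4 and 12 weeks held 8384001 to 12096213 miRNA reads as inferred from the step between low values, with a median of 9350848, and 428 to 438 entries had at least 1 read. Where a library has no read of a miRNA, counting error alone allows up to 3 reads, worth 0.251 to 0.363 RPM. No pair of libraries within these ages was as close as counting noise allows. The 4-week libraries were not alike. In a principal component analysis of the 374 miRNAs, 4-week replicates 3, 4 and 5 had first-component scores of −10.69, −9.68 and −7.39. There 4-week replicates 1 and 2 had −1.77 and 1.103, close on this component to the 12-week libraries, which lay between 2.28 and 10.76. On the second component 4-week replicates 1 and 2 had 4.31 and 5.23, above the 12-week libraries, which lay between −3.18 and 2.29. 4-week replicate 2 also had 247260 RPM of miR-143-3p, a smooth muscle and fibroblast miRNA, against 89358 to 103192 RPM in the other 4-week libraries. The counts of called and non-overlapping miRNAs over all members are therefore given with and without 4-week replicates 1 and 2.

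**Figure D1:**
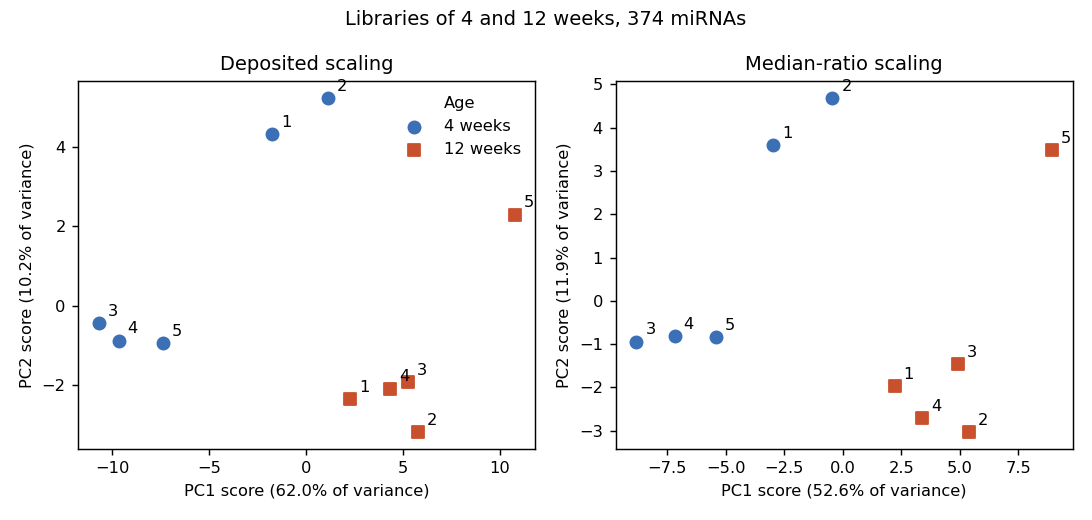
Scores of the 10 libraries on the first (x axis) and second (y axis) principal component of log2(RPM + 1) over 374 miRNAs, for the deposited scaling (left) and median-ratio scaling (right), with replicate numbers beside the points. The first component of the deposited scaling took up 62.0% of the variance, and 4-week replicates 1 and 2 lay apart from 4-week replicates 3, 4 and 5.

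Between 4 and 12 weeks 148 of the 374 miRNAs passed the test (limma on log2(RPM + 1), Benjamini-Hochberg adjusted p under 0.05 over the 405 entries fitted). A lower level at 12 weeks was found for 127 and a higher level for 21. Over all entries fitted 37.5% were called, 5.19% higher and 32.3% lower. The change was at least 2-fold for 42 of the 148, 4 higher and 38 lower, against 10.4% of all entries fitted, 0.988% higher and 9.38% lower. The 5 libraries of one age lay wholly above or below the 5 of the other for 72 miRNAs, 10 higher and 62 lower, against 18.5% of all entries fitted, 2.47% higher and 16.0% lower. Without 4-week replicates 1 and 2, 16 were higher and 161 lower (45.4% of all entries fitted, 3.95% higher and 41.5% lower), and 138 of the 148 calls were shared. Of the calls made without them, 80 were at least 2-fold, 5 higher and 75 lower (20.2% of all entries fitted, 1.23% higher and 19.0% lower). The remaining 3 libraries of 4 weeks did not overlap with those of 12 weeks for 188 miRNAs, 20 higher and 168 lower (48.4% of all entries fitted, 4.94% higher and 43.5% lower), where fewer libraries also make an overlap less likely.

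The balance between higher and lower calls depended on how libraries were put on a common scale. With the deposited scaling the median log2 change of all 374 miRNAs was −0.28. Median-ratio scaling, which sets the typical miRNA of each library to the same level, moved that median to 0.01 and called 82 higher and 70 lower, against 38.0% of all entries fitted, 20.2% higher and 17.8% lower. TMM scaling called 65 higher and 77 lower, against 35.6%, 16.0% higher and 19.5% lower. All 21 higher calls and 70 of the 127 lower calls of the deposited scaling were made under both other scalings. Leaving out 4-week replicates 1 and 2 as well, with the deposited and with median-ratio scaling, left 77 of these 91, 14 higher and 63 lower. The tables hold shares of a library and no amount per cell, so changes are stated relative to the other miRNAs. In whole liver, fewer cells of one type and less of a miRNA per cell cannot be told apart.

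**Figure D2:**
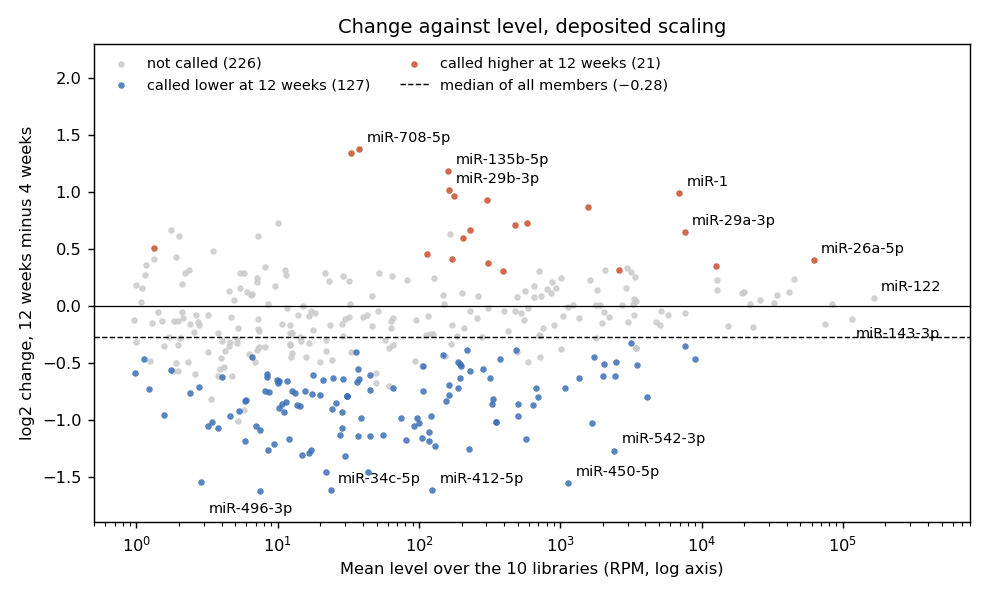
The log2 change from 4 to 12 weeks (y axis) of each of 374 miRNAs against its mean level over the 10 libraries in RPM (x axis, log scale), with miRNAs called higher and lower in colour and the median of all members dashed. Lower calls run through all levels, and the dashed median lies at −0.28.

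The calls were spread unevenly over levels. Among the 70 miRNAs with a mean of at least 1000 RPM, 6 were higher and 15 lower, against 5.19% higher and 32.3% lower over all entries fitted. At 100 to 1000 RPM 12 of 90 were higher and 35 lower, at 10 to 100 RPM 2 of 107 were higher and 49 lower, and under 10 RPM 1 of 107 was higher and 28 lower. The 10 most abundant miRNAs held 66.6% ± 2.98 (SD, n = 5) of the reads at 4 weeks and 67.9% ± 0.75 at 12 weeks, with 4-week replicate 2 at 71.6%.

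miR-122 had 162132 ± 28972 RPM at 4 weeks and 168623 ± 23248 RPM at 12 weeks (SD, n = 5 each) and was not called (log2 change 0.07 ± 0.12, SE of the fit; adjusted p = 0.682). miR-194, a hepatocyte and gut epithelial miRNA, had 39930 ± 5326 and 43138 ± 2736 RPM and did not pass either (adjusted p = 0.328). Their high levels in all 10 libraries match the liver label. miR-143-3p, miR-30a-5p, miR-21-5p, miR-148a-3p, miR-101-3p, let-7f-5p and miR-30e-5p, also among the 10 most abundant, did not pass, with log2 changes between −0.16 and 0.24. Under median-ratio scaling miR-122, miR-194, miR-148a-3p, miR-101-3p and let-7f-5p passed as higher, with log2 changes of 0.34 to 0.56.

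miR-26a-5p, which represses cyclins and the chromatin enzyme EZH2 and slows the growth of liver tumour cells in mouse, was the single one of the 10 most abundant that rose under the deposited scaling. Its level was 62346, 50675, 51416, 51357 and 53087 RPM in 4-week replicates 1 to 5, and 60432, 82210, 73278, 70146 and 69020 RPM in 12-week replicates 1 to 5. Only 4-week replicate 1 reached into the 12-week range. The log2 change was 0.40 ± 0.08 (adjusted p = 0.000464), or 0.72 under median-ratio scaling. The sheep-named entry oar-miR-26a, far lower in level, went from 365 ± 86.8 to 594 ± 120 RPM (a change of 0.71 ± 0.17 in log2, adjusted p = 0.00181). Reads of near-identical entries can be shared or divided, so the 2 are not independent. All 4 listed members of the miR-26 family had changes above 0, 2 of them called, with 4 called higher under median-ratio and 3 under TMM scaling. Over all entries fitted 5.19% were called higher with the deposited scaling, 20.2% with median-ratio and 16.0% with TMM scaling.

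The largest rise was that of miR-708-5p, encoded inside an intron of the TENM4 gene in human and mouse. It had 17.2, 27.8, 17.8, 21.6 and 18.9 RPM in the 4-week libraries and 56.1, 62.0, 48.4, 47.9 and 59.1 RPM in the 12-week libraries. The ages did not overlap, and the lowest 12-week library stood well above the highest 4-week library. The log2 change was 1.38 ± 0.27, a 2.60-fold rise (adjusted p = 0.000433). Its other arm, miR-708-3p, went from 19.5 ± 14.4 to 46.5 ± 18.3 RPM (a change of 1.34 ± 0.35 in log2, adjusted p = 0.0036). There 4-week replicate 2, with 45.02 RPM, lay inside the 12-week range, and the other 4-week libraries had 11.6 to 15.3 RPM.

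The miR-29 family, which represses collagens and other matrix genes, contained 3 higher calls and no lower call among 6 members (median log2 change 0.40, against −0.28 over all members). Over all entries fitted 5.19% were called higher. Under median-ratio scaling 5 of the 6 were higher, with a median of 0.70 against 0.01, where 20.2% of all entries fitted were higher. miR-29a-3p had 5954, 5255, 6379, 6833 and 5312 RPM in the 4-week libraries and 9107, 9999, 10146, 8483 and 8619 RPM in the 12-week libraries. The ages did not overlap, and the log2 change was 0.64 ± 0.10 (adjusted p = 6.11e-05). miR-29b-3p had 79.3, 155, 93.8, 117 and 91.3 RPM against 244, 225, 269, 206 and 141 RPM, so 12-week replicate 5 fell within the 4-week range. Its log2 change was 1.01 ± 0.17 (adjusted p = 0.000107). miR-29c-3p rose by 0.45 ± 0.16 on the log2 scale (adjusted p = 0.0225), a call lost without 4-week replicate 1 and without 12-week replicates 2 or 4 (adjusted p up to 0.0774), and without 4-week replicates 1 and 2 together (log2 change 0.26).

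miR-365 lies beside miR-193a or miR-193b in the human genome, and miR-193b and miR-365 promote brown fat differentiation in mouse. miR-365-3p had 323, 313, 480, 511 and 545 RPM in the 4-week libraries and 1052, 614, 771, 569 and 594 RPM in the 12-week libraries. No library overlapped, and 12-week replicate 1 was the highest. The log2 change was 0.73 ± 0.19 (adjusted p = 0.00337). miR-193b-3p went from 177 ± 36.2 to 283 ± 75.7 RPM (a change of 0.67 ± 0.21 in log2, adjusted p = 0.0141) and miR-193a from 161 ± 34.8 to 245 ± 63.9 RPM (a change of 0.59 ± 0.22 in log2, adjusted p = 0.03). 12-week replicate 1 was again the highest library of both. Without it neither was called (adjusted p = 0.0514 and 0.107), miR-193a was also lost without 4-week replicate 1 or 2, and without 4-week replicates 1 and 2 together miR-365-3p had an adjusted p of 0.0552, miR-193b-3p of 0.114 and miR-193a of 0.217. miR-193b-5p had 4.22 ± 0.518 and 4.85 ± 1.52 RPM and did not pass.

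Further higher calls were smaller. miR-22-3p, abundant in liver and heart, went from 11245 ± 1917 to 14248 ± 1537 RPM (a change of 0.35 ± 0.10 in log2, adjusted p = 0.00859; adjusted p = 0.129 without 4-week replicates 1 and 2). miR-140-3p, best known from cartilage, had 2171 to 2499 RPM in the 4-week libraries and 2684 to 3336 RPM in the 12-week libraries, with no overlap (log2 change 0.32 ± 0.09, adjusted p = 0.00768). Its other arm miR-140-5p rose by 0.30 ± 0.11 (adjusted p = 0.0241), lost without 4-week replicates 1 or 3 or 12-week replicates 2 or 3 (adjusted p up to 0.086). The miR-30 family, of which miR-30c lowers lipoprotein secretion by mouse liver, had 1 higher call among 11 members, miR-30e-3p (log2 change 0.37 ± 0.14, adjusted p = 0.0353). This is the less abundant arm of its hairpin (268 RPM at 4 weeks, against 25642 RPM for 5p). Its call was lost in 6 of the 10 fits that left out a library, those without 4-week replicates 3, 4 or 5 or 12-week replicates 2, 4 or 5. That family had 4 higher calls under median-ratio scaling and 4 under TMM scaling, where 20.2% and 16.0% of all entries fitted were higher. It had 1 higher and 2 lower calls without 4-week replicates 1 and 2. These became 6 higher and none lower when median-ratio scaling was used as well. miR-135b-5p, raised in human colorectal tumours, had 72.7, 79.5, 68.9, 66.0 and 159 RPM against 87.1, 447, 347, 107 and 178 RPM. Its 12-week libraries were widely spread, and its call (log2 change 1.18 ± 0.46, adjusted p = 0.0458) was lost in 7 of the 10 fits, with adjusted p up to 0.146 without 12-week replicate 2; it held only without 4-week replicate 5, 12-week replicate 1 or 12-week replicate 4.

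**Figure D3:**
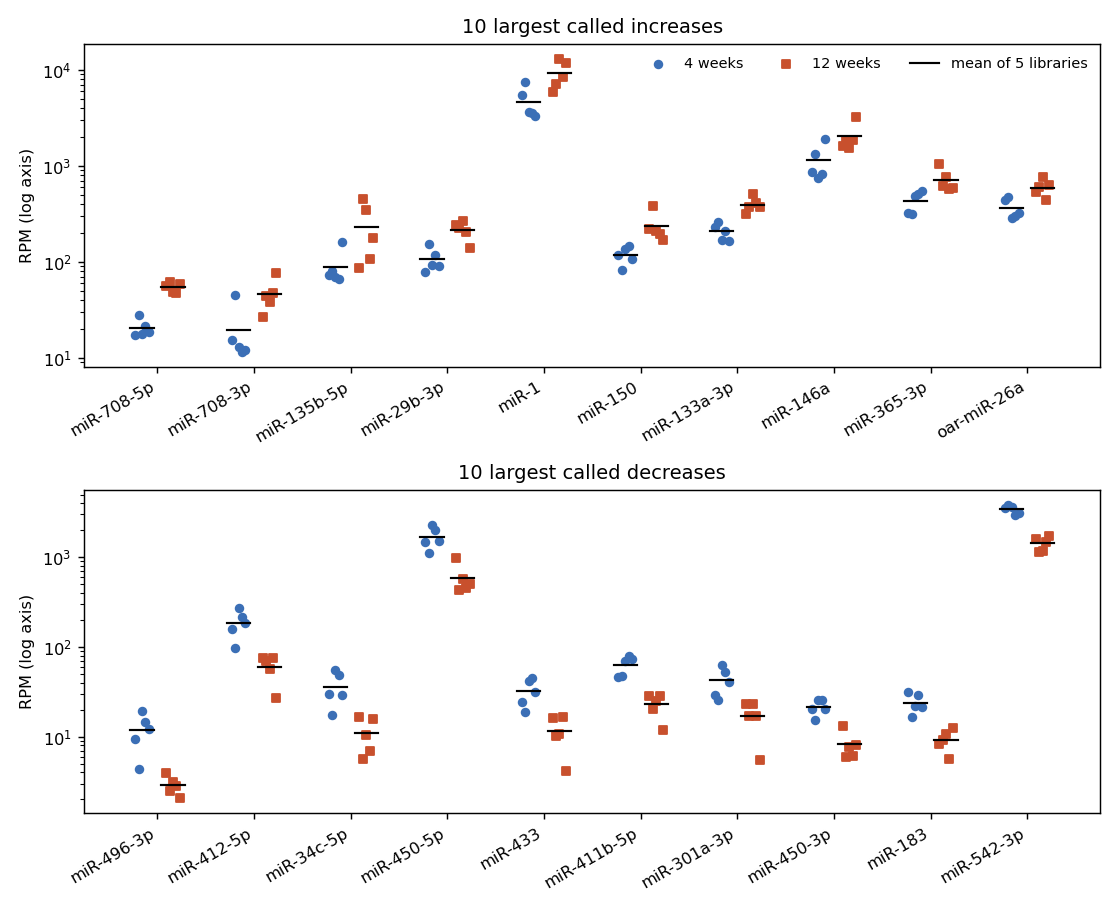
RPM (y axis, log scale) of the 10 largest called increases (top) and the 10 largest called decreases (bottom) averaging 10 RPM or more in the higher age, each library as a point and the mean of 5 libraries as a bar. The ages do not overlap for any of the 10 decreases and for 4 of the 10 increases (miR-708-5p, miR-150, miR-133a-3p and miR-365-3p). Picking the largest called changes favours such separation. Over all entries fitted 16.0% were lower and 2.47% higher without overlap.

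Of the 10 largest decreases 4 belonged to the DLK1-DIO3 cluster and 3 to the cluster of miR-424, miR-542 and miR-450. The latter cluster is X-linked in human and mouse, and miR-424 shares its seed with the miR-15 and miR-16 family, which represses cell cycle genes. All 6 of its listed arms were lower, and all 6 had no overlap between the ages. Over all entries fitted 32.3% were called lower and 16.0% were lower without overlap. All 6 were called lower under both other scalings, without 4-week replicates 1 and 2 and in all 10 fits that left out a library. The median log2 change was −1.22 with the deposited and −0.90 with median-ratio scaling. Summed over the cluster, the level went from 5972 ± 574 to 2405 ± 493 RPM.

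miR-542-3p, which represses the cell division protein survivin in human cells, was the most abundant arm of that cluster. It had 3549, 3840, 3602, 2929 and 3132 RPM in the 4-week libraries and 1584, 1136, 1183, 1476 and 1747 RPM in the 12-week libraries. The log2 change was −1.27 ± 0.13 (adjusted p = 8.82e-08), a 2.41-fold fall. miR-450-5p had 1480, 1118, 2313, 2025 and 1530 RPM against 971, 428, 569, 450 and 501.66 RPM (log2 change −1.56 ± 0.23, adjusted p = 2.93e-05), and 12-week replicate 1 stood above the other 12-week libraries. miR-424-5p went from 785 ± 131 to 357 ± 111 RPM (a change of −1.17 ± 0.17 in log2, adjusted p = 2.48e-05). The 8-week mean lay between the other ages for all 6 arms, for instance 2477 RPM for miR-542-3p.

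The DLK1-DIO3 cluster held 60 of the 127 lower calls, made among its 71 members, where 32.3% of all entries fitted were lower. It is an imprinted domain whose miRNAs come from the maternally inherited chromosome in mouse, sheep and human, and it is active in fetal and early postnatal growth. None of its 71 members was higher, and all 71 changes were below 0, from −1.63 to −0.05 (median −0.86). The 11 that did not pass had adjusted p of 0.0519 to 0.871. Under median-ratio scaling 42 were lower and none higher (median −0.57, against 0.01 over all members), and under TMM scaling 45 were lower. Without 4-week replicates 1 and 2, 66 were lower. The shares lower over all entries fitted were 17.8% with median-ratio scaling, 19.5% with TMM scaling and 41.5% without those replicates. Leaving out any 1 library left 50 to 66 lower calls in the cluster. Summed over the cluster, the 4-week libraries had 14486, 12413, 20746, 18891 and 20050 RPM and the 12-week libraries 10253, 10897, 9559, 11536 and 7896 RPM. These sums did not overlap, with 4-week replicates 1 and 2 the lowest of their age. Not all members are independent. The 5p arms of miR-376b, miR-376c and miR-376e had near-equal means of 38.8, 39.0 and 38.8 RPM at 4 weeks and can share reads.

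miR-379-5p, the most abundant member of the domain, had 2962, 2620, 3143, 2759 and 3276 RPM at 4 weeks and 1877, 2098, 1660, 2252 and 1784 RPM at 12 weeks. The ages did not overlap, and the log2 change was −0.61 ± 0.14 (adjusted p = 0.00172). Under median-ratio scaling it was −0.29 and did not pass (adjusted p = 0.115). The same held for miR-411a-5p, at −0.52 ± 0.15 with the deposited scaling (adjusted p = 0.00859) and −0.19 with the median ratio (adjusted p = 0.341). miR-369-3p had 1711, 1421, 3076, 2725 and 2511 RPM against 1171, 1093, 1197, 1198 and 775 RPM, and kept its call under both scalings (log2 change −1.03 ± 0.17, adjusted p = 8.79e-05; −0.71 with the median ratio). miR-127-3p, made opposite the RTL1 gene that it represses in mouse, went from 1354 ± 342 to 812 ± 167 RPM (a change of −0.72 ± 0.17 in log2, adjusted p = 0.00218).

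The steepest falls of the domain were among its less abundant members. miR-496-3p had 9.50, 4.36, 19.4, 14.7 and 12.2 RPM at 4 weeks and 3.92, 2.51, 3.15, 2.82 and 2.07 RPM at 12 weeks (log2 change −1.63 ± 0.27, adjusted p = 6.39e-05). miR-412-5p had 161, 98.6, 275, 216 and 186 RPM against 74.6, 69.2, 56.3, 75.1 and 27.2 RPM (log2 change −1.62 ± 0.25, adjusted p = 3.84e-05). In both, the 4-week libraries spread widely, with replicate 2 the lowest, and still did not overlap with 12 weeks. miR-411b-5p (63.7 ± 15.7 to 22.9 ± 6.98 RPM) and miR-433 (32.4 ± 11.3 to 11.6 ± 5.14 RPM) each fell by 1.46 on the log2 scale (adjusted p = 3.39e-05 and 0.000361). oar-miR-431 went from 4.80 ± 1.68 RPM to 0.96 ± 0.506 RPM (a change of −1.55 ± 0.25 in log2, adjusted p = 6.39e-05), and its 8-week mean was already 1.06 RPM.

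Other lower calls also came from neighbours in the genome. RefSeq goat miRNA genes within 10000 bases of each other formed 35 groups with 2 or more hairpins, after 354 of the 374 members were matched to them by name. The groups described next are among those with the lowest medians. Many of the 35 had no lower call, for instance miR-199a with miR-214, miR-143 with miR-145, miR-221 with miR-222, and miR-195 with miR-497. All 3 members of the miR-182, miR-183 and miR-96 group, known for their role in sensory cells of the ear and eye, were lower. Under median-ratio scaling 2 of them were lower too. The shares lower over all entries fitted were 32.3% with the deposited and 17.8% with median-ratio scaling. miR-183 had 31.2, 16.7, 21.99, 28.9 and 21.4 RPM at 4 weeks and 8.25, 9.22, 10.7, 5.64 and 12.6 RPM at 12 weeks (log2 change −1.29 ± 0.25, adjusted p = 0.000391). miR-182 went from 38.2 ± 6.25 to 18.8 ± 8.08 RPM (a change of −1.08 ± 0.28 in log2) and miR-96 from 10.4 ± 1.90 to 5.77 ± 1.04 RPM (a change of −0.75 ± 0.25 in log2), the latter lost without 4-week replicate 5 or 12-week replicate 4 (adjusted p up to 0.0628). The values of these 3 miRNAs did not overlap between ages (16.0% of all entries fitted were lower without overlap).

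miR-301a and miR-454, hosted by an intron of the SKA2 gene in human, had 3 lower calls of 3 under both scalings. Over all entries fitted 32.3% were lower with the deposited and 17.8% with median-ratio scaling. miR-301a-3p had 29.2, 25.8, 63.6, 52.8 and 41.0 RPM at 4 weeks and 23.2, 16.9, 23.4, 16.9 and 5.53 RPM at 12 weeks (log2 change −1.32 ± 0.28, adjusted p = 0.000876). 4-week replicates 1 and 2 lay close to the 12-week libraries. miR-454-3p went from 77.5 ± 22.5 to 34.4 ± 8.92 RPM (a change of −1.14 ± 0.22 in log2, adjusted p = 0.000361). miR-34c-5p, of the p53-induced miR-34 family, had 29.7, 17.4, 55.6, 48.7 and 29.5 RPM against 16.4, 5.70, 10.6, 6.90 and 15.8 RPM (log2 change −1.62 ± 0.40, adjusted p = 0.00242). Its neighbour miR-34b-3p had 7.62 ± 3.29 and 3.86 ± 2.52 RPM and did not pass (adjusted p = 0.0508), and miR-34a, which is encoded elsewhere, had 50.4 ± 18.1 and 42.9 ± 8.79 RPM (adjusted p = 0.601).

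The X-linked group of miR-532, miR-188, miR-362, miR-500, miR-502 and miR-660, hosted by the CLCN5 gene in human, had 7 lower calls among 9 members (median −0.62). It had 3 under median-ratio scaling (median −0.34). The shares lower over all entries fitted were 32.3% with the deposited and 17.8% with median-ratio scaling. miR-660 went from 200 ± 29.7 to 123 ± 18.9 RPM (a change of −0.69 ± 0.12 in log2, adjusted p = 0.000137) and miR-532-5p from 237 ± 37.2 to 151 ± 15.9 RPM (a change of −0.64 ± 0.11 in log2, adjusted p = 0.000178). Both passed under median-ratio scaling too, and neither overlapped between ages. The miR-17-92 group with its paralogs, which drives cell proliferation under MYC, had 6 lower calls among 21 members, a share under the 32.3% lower over all entries fitted (median −0.38, against −0.28 over all members). It had 11 lower calls without 4-week replicate 2, 12 without 4-week replicates 1 and 2 together, and 2 higher and 3 lower calls under median-ratio and under TMM scaling. miR-18a-5p had 89.4, 84.5, 185, 178 and 146 RPM against 75.9, 56.4, 80.5, 72.6 and 39.4 RPM (log2 change −1.03 ± 0.23, adjusted p = 0.00113; −0.71 with the median ratio, also called). The most abundant members of that group, miR-92a-3p, miR-92b and miR-25-3p, did not pass.

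The let-7 family, which restrains growth and fetal gene programmes, had no higher call and 3 lower calls among 20 members under the deposited scaling. That share of lower calls is under the 32.3% of all entries fitted. Against 20.2% higher and 17.8% lower over all entries fitted, median-ratio scaling gave the family 7 higher calls and 1 lower call (6 and 1 under TMM). Without 4-week replicate 1 there were 5 lower calls, and without 4-week replicates 1 and 2 together 6. Its direction thus depended on the scaling, and its median of −0.03 lay above that of all members. let-7f-5p had 32465 ± 4608 and 32694 ± 543 RPM. miR-98-3p, the member called lower under both, went from 17.1 ± 4.04 to 9.61 ± 2.27 RPM (a change of −0.77 ± 0.20 in log2, adjusted p = 0.00451). It is the less abundant arm of its hairpin, whose 5p arm had 2910 ± 493 RPM at 4 weeks. let-7i-5p had 7506 to 9149 RPM at 4 weeks and 6197 to 7184 RPM at 12 weeks (log2 change −0.36 ± 0.10, adjusted p = 0.00595; −0.04 with the median ratio). The miR-15 and miR-16 family, whose members block the cell cycle through cyclins, had 3 lower calls among 12, a share under the 32.3% of all entries fitted. They were miR-424-5p, miR-424-3p and miR-16b-3p. Lists hold both arms of a hairpin, and miR-424-3p and miR-16b-3p were the less abundant arms (51.2 and 12.9 RPM at 4 weeks, against 785 and 1793 RPM for 5p). The 2 arms differ in seed, so a role named for a family need not hold for both. Under median-ratio scaling the family had 5 higher and 2 lower calls (3 and 2 under TMM). Without 4-week replicate 1, and likewise without 4-week replicate 2, it had 5 lower calls, as it had without both, and without 4-week replicate 5 it had 1 higher call.

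miR-335-5p, made from an intron of the imprinted MEST gene in human and mouse, went from 5245 ± 1246 to 2996 ± 674 RPM (a change of −0.80 ± 0.20 in log2, adjusted p = 0.0024). 4-week replicate 2, at 3314 RPM, lay within the 12-week range of 1996 to 3886 RPM, and under median-ratio scaling the call was not made (adjusted p = 0.0554). miR-483, in an intron of the imprinted growth factor gene IGF2, had 13.8 ± 7.53 and 10.8 ± 5.08 RPM and did not pass.

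Among miRNAs linked to lipid and glucose metabolism, 2 of 13 were lower and none higher, a share of lower calls under the 32.3% of all entries fitted (median −0.18, against −0.28 over all members), and 4 were higher and 1 lower under median-ratio scaling (3 and 1 under TMM). Over all entries fitted 20.2% were higher and 17.8% lower under median-ratio scaling. In this list there were 5 lower calls without 4-week replicate 2, and likewise without 4-week replicates 1 and 2 together. Without 4-week replicate 4 there was 1 higher call. oar-miR-370-3p, a DLK1-DIO3 member that represses a fatty acid oxidation enzyme in human cells, was lower under both, from 51.8 ± 19.4 to 22.1 ± 5.81 RPM (a change of −1.14 ± 0.27 in log2, adjusted p = 0.00164). miR-27b-5p was lower with the deposited scaling alone (log2 change −0.61 ± 0.17). miR-103-3p, which dampens insulin signalling in mouse liver, had 1846 ± 412 and 2273 ± 327 RPM (adjusted p = 0.0969, and 0.000113 with the median ratio). miR-221 and miR-222, raised in proliferating liver cells, had no call among 3 members.

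Markers of cell types that whole liver can hold were read beside these groups. For comparison, 5.19% of all entries fitted were higher and 32.3% lower with the deposited scaling, and 20.2% and 17.8% with median-ratio scaling. The hepatocyte list had 1 higher call of 7 (miR-148a-5p) and 7 of 7 under either other scaling. That call was lost without 4-week replicates 3 or 4 or 12-week replicates 2 or 5, and 2 were called without 4-week replicate 1 or 12-week replicate 1. The leukocyte list had 3 higher calls of 9 (median 0.43; 5 under either other scaling), and its summed level was 2122 to 3659 RPM at 4 weeks and 3001 to 4560 RPM at 12 weeks. miR-150, high in mature lymphocytes, had 117, 82.9, 136, 145 and 106 RPM against 218, 385, 209, 196 and 171 RPM. These did not overlap (log2 change 0.96 ± 0.27, adjusted p = 0.00694). miR-146a, which dampens inflammatory signalling, had 871, 1321, 756, 816 and 1924 RPM against 1619, 1852, 1540, 1862 and 3255 RPM. The fifth replicate was the highest of both ages, and the call (log2 change 0.87 ± 0.29, adjusted p = 0.0182) was lost without 4-week replicate 3 or 4 or 12-week replicate 5 (adjusted p up to 0.0709). miR-155-5p, miR-223-3p and miR-223-5p, also leukocyte markers, were not called. The mean of miR-223-3p was lower at 12 weeks, at 256 ± 93.9 RPM against 304 ± 93.6 RPM at 4 weeks, and so was that of miR-223-5p. Of the 9 listed leukocyte members, 3 had log2 changes below 0, the lowest −0.33.

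The striated muscle list had 2 higher calls and 1 lower call of 6 (median 0.62), and 4 higher and no lower under median-ratio scaling (3 and none under TMM). Its sum, most of which was miR-1 in every library, was 3520 to 7700 RPM at 4 weeks and 6194 to 13588 RPM at 12 weeks. miR-1, specific to heart and skeletal muscle, had 5437, 7397, 3650, 3512 and 3316 RPM against 5852, 7055, 13037, 8347 and 11814 RPM. 4-week replicates 1 and 2 lay near or within the 12-week range. Its call (log2 change 0.99 ± 0.34, adjusted p = 0.0227) was lost without 4-week replicate 3, 4 or 5 or 12-week replicate 3 or 5, with adjusted p up to 0.0713. miR-133a-3p, made with miR-1, had 167 to 263 RPM against 314 to 509 RPM with no overlap (log2 change 0.93 ± 0.31, adjusted p = 0.0201; lost without 4-week replicate 3 or 12-week replicate 3, adjusted p up to 0.0549). miR-499-5p, from a myosin gene, moved the other way, from 29.9 ± 2.08 to 18.9 ± 1.29 RPM (a change of −0.63 ± 0.17 in log2, adjusted p = 0.00547), and miR-208b, a heart marker, was at 0 in 9 of the 10 libraries. Whether muscle tissue or blood cells in the samples took part in these changes was not tested.

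The erythroid list had 2 lower calls of 4, miR-144-5p (129 ± 20.8 to 66.0 ± 17.0 RPM, log2 change −0.98 ± 0.21, adjusted p = 0.0011) and miR-363-3p, which was not called under either other scaling, while miR-451-5p, its most abundant member, had 2666 ± 821 and 3258 ± 613 RPM and did not pass (higher under median-ratio scaling, not under TMM). The mesenchymal list turned with the processing, with no higher and 2 lower calls of 12 under the deposited scaling (5 lower without 4-week replicate 1), 1 higher and 2 lower under median-ratio scaling, and 3 higher and none lower with median-ratio scaling without 4-week replicates 1 and 2. The 2 lower calls were miR-199b-5p and its identical copy miR-199c-5p (465 ± 79.95 to 232 ± 65.0 RPM, log2 change −1.02 ± 0.24, adjusted p = 0.00164). The 3p entries of miR-199a, miR-199b and miR-199c, which can share reads, had adjusted p of 0.0519 to 0.052. The endothelial miR-126-5p was lower (log2 change −0.52 ± 0.13, adjusted p = 0.00303) with the deposited scaling and not with the median ratio (−0.20), and miR-126-3p did not pass (2 lower calls of 2 without 4-week replicate 2). No biliary epithelial marker of 5 and no pancreas and endocrine marker of 4 passed with the deposited scaling. Without 4-week replicate 1, and likewise without 12-week replicate 1, 1 biliary marker was lower, and under median-ratio scaling 3 pancreas and endocrine markers were higher.

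**Figure D4:**
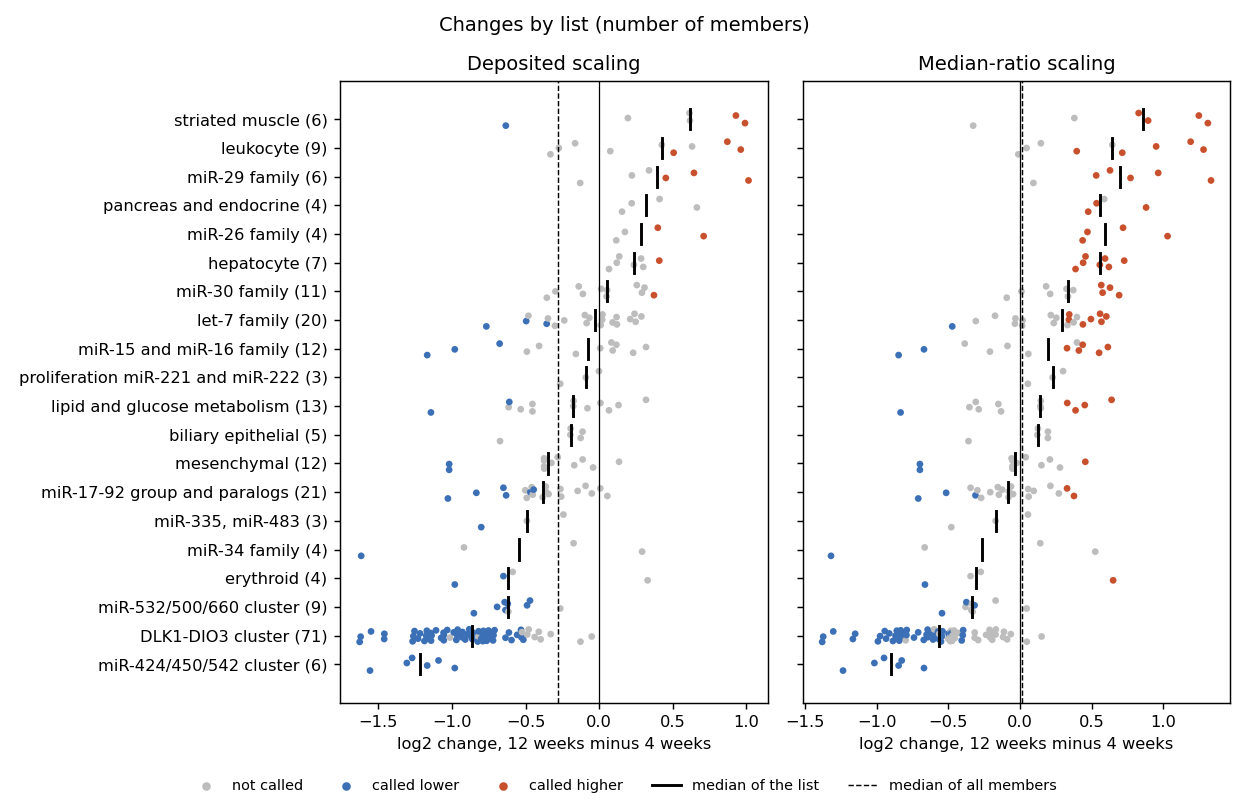
The log2 change from 4 to 12 weeks (x axis) of each member of the lists with 3 or more members (rows, number of members in parentheses), with the deposited scaling (left) and median-ratio scaling (right). Dots are miRNAs coloured by call, short bars are list medians and the dashed line is the median of all 374 members. The cluster of miR-424, miR-450 and miR-542 and the DLK1-DIO3 cluster lie left of the dashed line in both panels, with medians of −1.22 and −0.86 on the left and −0.90 and −0.57 on the right.

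The changes were next split at 8 weeks. The test of the difference between the 4-to-8-week and the 8-to-12-week step called none of the 374 miRNAs (limma, 0.0% of 405 entries; 30 at an unadjusted p under 0.05; 2, miR-125a-3p and miR-29b-3p, passed without 4-week replicates 1 and 2 with median-ratio scaling). The 8-week mean lay between the other means for 137 of the 148 called miRNAs, 17 of the 21 higher and 120 of the 127 lower. These miRNAs were picked for a difference between 4 and 12 weeks, which by itself favours a mean in between. The count therefore does not show a gradual change. Of the same 148, the step from 4 to 8 weeks was the larger for 90 and that from 8 to 12 weeks for 58. The smallest p belonged to miR-125a-3p, with 3.84 RPM at 4 weeks, 5.46 ± 1.54 at 8 weeks and 2.62 at 12 weeks (difference of steps −1.21 ± 0.33 on the log2 scale, unadjusted p = 0.00108, adjusted p = 0.241). miR-374b-5p, miR-140-5p, oar-miR-431 and miR-29b-3p followed. miR-29b-3p went from 107 RPM at 4 weeks to 211 ± 32.8 RPM at 8 weeks and 217 RPM at 12 weeks, a log2 change of 0.99 in the first step and 0.02 in the second, and this difference did not pass (adjusted p = 0.276).

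Both arms of a hairpin are read in the same library, so its scale cancels in their ratio apart from the pseudocount. Of 68 hairpins with a mean of at least 10 RPM for each arm, 9 changed their ratio of 5p to 3p (limma, 13.2% called), 6 toward 3p (8.82%) and 3 toward 5p (4.41%). Counting miR-199b and its identical copy miR-199c once leaves 8. Median-ratio and TMM scaling each called 10, 6 toward 3p and 4 toward 5p, and a pseudocount of 10 in place of 1 called 16. The share called depended on the level required. With a mean of at least 100 RPM for each arm, 10 of 21 hairpins were called, 9 toward 3p and 1 toward 5p. With at least 1 RPM, 13 of 124 were called, 8 toward 3p and 5 toward 5p. No change reached 1 on the log2 scale. The libraries of the ages did not overlap for 6 hairpins, all toward 3p, or 8.82% of the 68: miR-199b, miR-199c, miR-29a and miR-27b, which passed the test, and miR-409 and miR-30a, which did not. Leaving out single libraries gave 4 to 16 calls (4 without 12-week replicate 2, 5 without 4-week replicate 3, 16 without 12-week replicate 3), and 13 were called without 4-week replicates 1 and 2.

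miR-199b, a fibroblast and stellate cell miRNA, had log2 ratios of −3.21, −3.03, −3.11, −2.89 and −3.10 at 4 weeks and −3.23, −3.84, −3.67, −3.65 and −4.17 at 12 weeks. The ratio fell by 0.65 ± 0.15 (adjusted p = 0.00648), with all 12-week libraries below all 4-week libraries. Its 5p arm fell, as given above, and its 3p arm went from 3875 ± 368 to 2997 ± 365 RPM. The miR-199a 3p entry had nearly the same values, 3884 ± 369 and 3006 ± 366 RPM, so the 2 entries can hold the same reads. The miR-199b ratio therefore cannot tell a change of arm use from a change of miR-199b relative to miR-199a. The miR-29a ratio also moved toward 3p. Its 3p arm rose and its 5p arm had 21.2 ± 2.92 and 24.8 ± 2.05 RPM, which did not pass (change of the log2 ratio −0.42 ± 0.10, adjusted p = 0.0076, no overlap). miR-27b (−0.43 ± 0.13, adjusted p = 0.021), miR-127 (−0.47 ± 0.14, adjusted p = 0.021) and miR-455 (−0.39 ± 0.13, adjusted p = 0.0488) also moved toward 3p.

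miR-16b moved toward 5p, with log2 ratios of 7.41, 7.48, 6.61, 7.002 and 7.01 at 4 weeks and 7.38, 8.02, 7.83, 7.79 and 7.91 at 12 weeks (change 0.68 ± 0.18, adjusted p = 0.0095). 12-week replicate 1 lay within the 4-week range. Its 5p arm had 1793 ± 432 and 1760 ± 166 RPM, and its 3p arm went from 12.9 ± 6.15 to 7.11 ± 1.94 RPM. miR-374b (0.63 ± 0.17, adjusted p = 0.0109) and miR-500 (0.38 ± 0.11, adjusted p = 0.021) moved the same way, and neither was called without 4-week replicates 1 and 2 (adjusted p = 0.0939 and 0.102). The calls of miR-199b, miR-29a and miR-16b held in all 10 fits that left out a library. Those of miR-374b, miR-27b, miR-127, miR-500 and miR-455 did not, with adjusted p up to 0.0611, 0.0936, 0.0936, 0.104 and 0.145. miR-374b was lost without 12-week replicate 2, and miR-27b without that library or 4-week replicate 3. miR-127 and miR-455 were lost without 4-week replicates 3 or 4 or 12-week replicates 2 or 4, and miR-500 without 4-week replicates 2 or 3 or 12-week replicates 2 or 4.

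**Figure D5:**
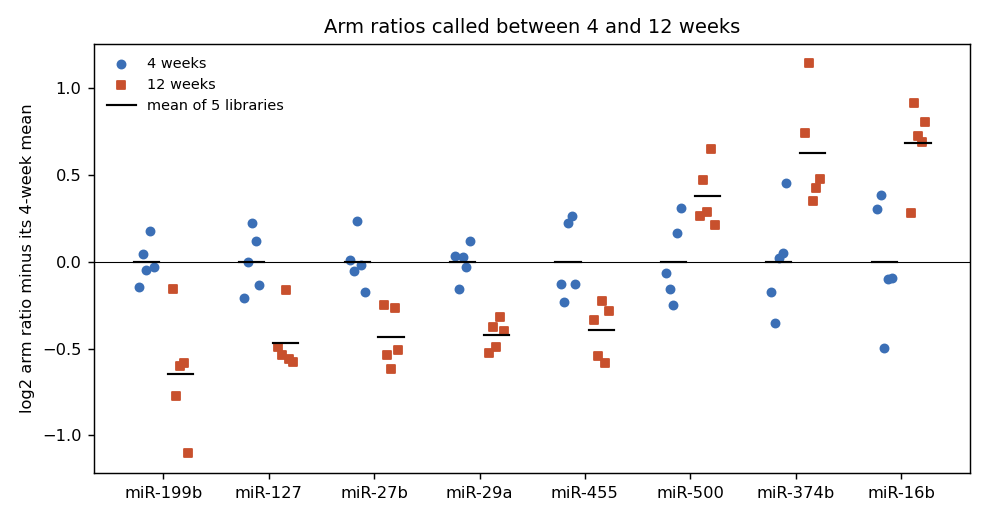
The log2 ratio of 5p to 3p RPM of each called hairpin minus its 4-week mean (y axis), by library, with bars for the mean of 5 libraries. The 12-week mean of miR-199b lies lowest (−0.65) and that of miR-16b highest (0.68).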

How the data were processed

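Per the labels' protocols, RNA of flash-frozen liver was taken up in Trizol and libraries were made from 5 ug with an Illumina TruSeq stranded total RNA kit. The submitters' processing notes list Bowtie 1.1.1. Small RNA selection, genome build, annotation, trimming and the handling of reads matching several miRNAs were not given in the sources used here. Deposited values are RPM, read as such from the values: each column of the 25 libraries summed to 1010981 to 1018216, and each non-zero value was a whole multiple of 1 step, fitted per library, within a tolerance of 0.1 step. The step was taken as 1 read, so depths and floors are inferred from the values and stated nowhere; only 71 to 104 values per library lie within about 20 steps. The table holds no raw counts, so the test for normalized values was used.

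Values were taken as log2(RPM + 1), on which fold changes understate low miRNAs. limma 3.58.1 (R 4.3.3) used a trend of variance with level, all 25 libraries and a mean for each age, over the 405 entries that reached 1 RPM in 5 or more libraries. Arm ratios used log2((5p + 1)/(3p + 1)) without the trend. A two-sided Benjamini-Hochberg adjusted p under 0.05 made a call. The fits were tested on simulated data. Tables and figures were made in Python 3.11.15 with pandas 2.3.3, numpy 2.4.6 and matplotlib 3.10.9. Per-library values are in the order of replicates 1 to 5. The entries of miR-199b and miR-199c are identical, and entries that differ by few bases (the miR-199 3p arms, miR-92a-3p and miR-92b, sheep-named beside goat-named) can share or divide reads. The 5p entries of miR-376b, miR-376c and miR-376e, with near-equal values, can do so too. Neighbours were taken from RefSeq goat genes for names and adjacency only.

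Named miRNAs are the 10 largest called changes each way averaging 10 RPM or more in the higher age, the 10 most abundant, up to 4 of the most abundant of each of 21 lists, the 5 largest called arm ratio changes each way and the 5 smallest p of the step difference. Others, among them miR-182, miR-96, miR-454-3p, miR-193a, miR-193b, miR-22-3p, miR-140-3p, miR-30e-3p, miR-18a-5p, miR-98-3p, miR-199b-5p and the arm ratio of miR-455, were chosen after their values were seen. The miRNAs and lists were chosen with earlier results of these data known. Alternatives were median-ratio and TMM scaling, filters, pseudocounts, the replicate number as a block, left-out libraries and a fold threshold. Chosen after seeing the data were leaving out 4-week replicates 1 and 2 with median-ratio scaling, scaling to the reads outside the 10 most abundant miRNAs, and arm ratios under the other scalings.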

Additional observations from a re-analysis of the deposited data

Results flagged for a closer look

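Among 206 groups of 5 libraries looked at for named miRNAs and arm ratios, 17 had a library far from the other 4 (gap to the nearest above 0.71 of the range), and chance alone gives about 1 in 20. At 4 weeks the high libraries were replicate 2 for miR-143-3p (247260 RPM, next 103190) and miR-708-3p (45.02 RPM, next 15.3), replicate 1 for miR-26a-5p (62346 RPM, next 53087), and replicate 5 for miR-135b-5p (159 RPM, next 79.5), miR-411a-5p (2773 RPM, next 2384) and miR-449a-5p (4.54 RPM, next 1.6). At 12 weeks they were replicate 5 for miR-146a (3255 RPM, next 1862), miR-216b (4.49 RPM, next 1.46) and miR-217-5p (5.76 RPM, next 2.25), replicate 2 for miR-150 (385 RPM, next 218), and replicate 1 for miR-450-5p (971 RPM, next 569) and miR-483 (19.7 RPM, next 10.02).

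Low libraries at 12 weeks were replicate 4 for miR-199a-3p (2383 RPM, next 3052) and for the identical entries miR-199b-3p and miR-199c-3p (2376 RPM, next 3043), and replicate 5 for miR-369-3p (775 RPM, next 1093). The log2 arm ratio of miR-127 at 12 weeks was highest in replicate 3, at −3.21 against −3.54 for the next. miR-216b and miR-217-5p, both pancreatic markers, were high in the same library, and both lay under 6 RPM.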

How the results depend on the processing

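The count of called miRNAs moved between 122 (without 4-week replicate 3) and 171 (without 4-week replicate 2) when 1 library was left out, with 14 to 21 higher and 107 to 151 lower. With a 2-fold threshold 42 were called, 4 higher and 38 lower. Higher calls numbered 82 under median-ratio scaling, 65 under TMM scaling and 87 with median-ratio scaling without 4-week replicates 1 and 2, and lower calls 70, 77 and 80. Under that last alternative 4 named miRNAs changed sign, let-7i-5p to 0.076 (adjusted p = 0.642), miR-143-3p to 0.69 (adjusted p = 0.000669), miR-25-3p to 0.39 (adjusted p = 0.0115) and miR-27b-3p to 0.31 (adjusted p = 0.0426), and 2 differences between steps were called. The cause of these shifts was not tested. Filters, pseudocounts, only the compared ages and scaling to the reads outside the 10 most abundant miRNAs left the total, higher and lower counts within 1.5 times. Arm ratio calls went from 9 to 16 with a pseudocount of 10, to 0 at a log2 change of at least 1, and to between 4 and 16 with 1 library left out. Of all 148 calls, 106 were kept in every fit without 1 library and 42 were lost in at least 1. Among the named miRNAs, which include the largest changes, 42 were called. Of these, 36 kept their call in every fit without 1 library, 32 under median-ratio scaling and 39 without 4-week replicates 1 and 2. Same-numbered libraries of the ages had residual correlations of −0.275, −0.135, 0.026, 0.149 and −0.166, within the range of the other pairs (−0.402 to 0.429). The labels do not state whether the numbers pair samples, and such correlations cannot settle it. The fit with the replicate number as a block called 151, 20 higher and 131 lower, 8 arm ratios and 0 step differences. edgeR and DESeq2 were not run. Depth limits miRNAs near 1 RPM, where 1 read is worth 0.0838 to 0.121 RPM.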
